A study of Rattus norvegicus with 10 samples.

Results

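The genes described here are the subunits of the transcription factor NF-κB and genes that feed back on its pathway, in the lumbar cord of rats made tolerant to morphine. The list held 10 genes, namely Nfkb1, Nfkb2, Rel, Rela, Relb, Nfkbia, Nfkbie, Tnfaip3, Bcl3 and Birc3. A gene was taken as measured when an mRNA probe of the array carried a RefSeq accession of that gene. This was so for 6 of the 10, Rela, Nfkb2, Nfkbia, Nfkbie, Bcl3 and Birc3, out of 13888 genes matched in this way, each by 1 probe, and all 6 were well above background on all 10 arrays. Nfkb1, Rel, Relb and Tnfaip3 were not analysed here.

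The rats were male Sprague Dawley animals of 240 to 260 g. In the morphine tolerance (MT) group, 5 rats (rats 1 to 5) were given 10 μg of morphine in 10 μl into the spinal intrathecal space 2 times a day for 7 days. The 5 rats of the normal saline (NS) group (rats 6 to 10) received 10 μl of saline by the same route and schedule. The lumbar enlargement was taken on the day after the last full day of dosing, after a further morning injection, so each MT rat had also received morphine shortly before. RNA of each rat was hybridized to 1 one-colour array of rat mRNAs and lncRNAs, and all values below are log2 intensities after quantile normalization.

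NF-κB is a family of dimers that wait in the cytoplasm bound to IκB proteins. Cytokine and Toll-like receptors activate the IKK kinases, IκB is degraded, and the dimers enter the nucleus, where they bind short κB sites. Several of their targets encode their own inhibitors or subunits, so transcripts of these feedback genes are often read as a sign of recent NF-κB activity, and in the spinal cord glia, endothelium and infiltrating leukocytes all express them.

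The arrays shared 3 slides, judged by a common scan time: slide 1 held MT rats 1, 3, 4 and 5, slide 2 held MT rat 2 and NS rats 6, 7 and 10, and slide 3 held NS rats 8 and 9. Slide 3 was dimmer, with 63.8% and 58.6% of spots well above background against 77.4% to 83.9% on the other arrays. Slide 2 was therefore the single slide with both groups, and the values on it are given beside the main results. Of the markers used to check the tissue, all 8 oligodendrocyte genes and the 9 neuronal genes matched to a probe were above the filter.

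The promoters are shown first, because 7 of the 8 listed genes with an entry in the RefSeq promoter table (assembly GRCr8, 250 bases before to 50 after the annotated start) held a match to the κB consensus on one strand or both. Among all 33469 promoters of that length, 7.51% held a match. The listed genes were chosen as NF-κB subunits and feedback genes, so these shares are descriptions and not a test. Of the 5 measured genes with an entry, Nfkb2, Nfkbia, Nfkbie and Bcl3 held 1 match each, and no match to these letters was found in the window of Rela. Bcl3 was the gene past both thresholds of the study whose promoter could be read, and the 120 bases before its start, on the minus strand at chr1:88613556-88613675, are printed with the κB match in capitals.
Bcl3: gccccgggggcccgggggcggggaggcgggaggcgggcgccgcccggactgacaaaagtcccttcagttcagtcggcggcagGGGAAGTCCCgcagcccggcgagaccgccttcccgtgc

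The Bcl3 match lay at chr1:88613584-88613593, at positions -38 to -29 relative to the start, and read as a match on both strands. For comparison, the κB matches of the other measured genes follow, each in capitals with 10 bases on either side and read along the gene. The Nfkb2 window is chr1:255108344-255108373 on the plus strand, the Nfkbia window chr6:78597084-78597113 on the minus strand and the Nfkbie window chr9:22948017-22948046 on the minus strand.
Nfkb2: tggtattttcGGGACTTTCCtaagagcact
Nfkbia: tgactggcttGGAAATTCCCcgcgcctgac
Nfkbie: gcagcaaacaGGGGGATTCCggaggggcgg

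**Figure D1:**
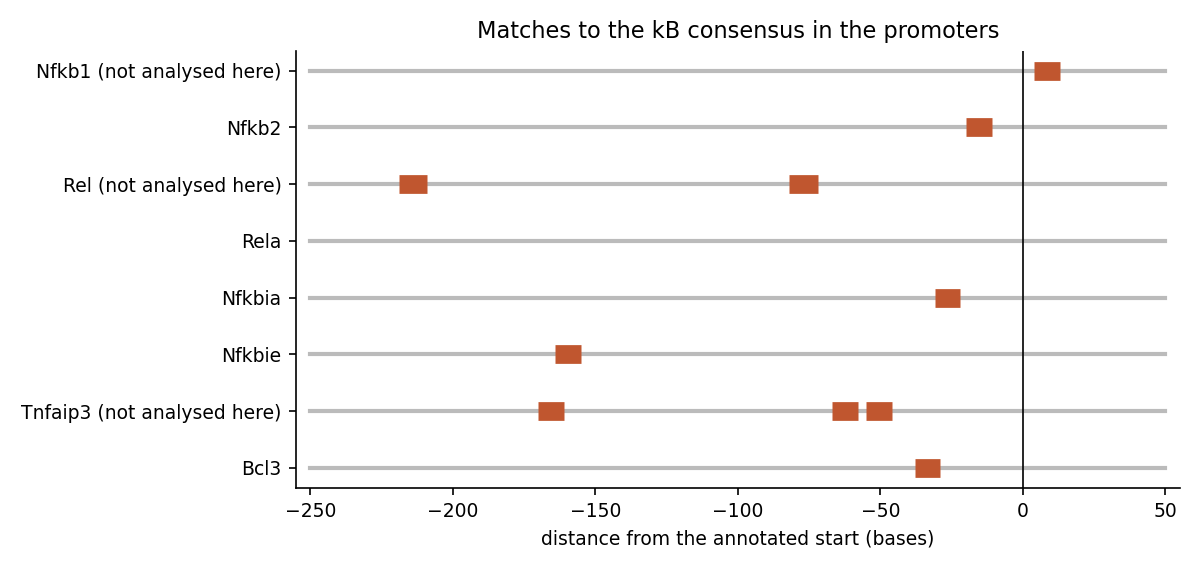
Matches to the κB consensus (blocks) in the 300-base promoters (grey lines) of the 8 listed genes with an entry, against the distance in bases from the annotated start. The match of Nfkb1 lies after its start, Rel has 2 separate matches, Tnfaip3 has 3, and no match was found for Rela.

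A match shows that the letters are present and not that a factor is bound there. The 4 measured genes that held one ranged in log2 fold change (MT minus NS) from -0.01 for Nfkbia to 1.41 for Bcl3, and their values by rat are given below. The Nfkb2 and Nfkbia matches lie inside the annotated span of the gene, since the promoter table takes the start of one transcript.

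Among the 6 measured genes, Bcl3 and Birc3 were 2.65-fold and 2.69-fold higher in the MT group, Nfkb2 and Nfkbie were higher by smaller amounts, Rela was lower, and Nfkbia was nearly equal. With the thresholds of the study, taken as a linear fold above 1.5 with P below 0.05 by limma, Bcl3 and Birc3 were up-regulated and none of the 6 was down-regulated. Over all 20284 RNAs tested, 1.74% were past these thresholds upward and 0.996% downward. The text of the study writes its cutoff as a log2 fold change above 1.5, while its tables list both genes as up-regulated by linear folds. Read as log2, neither Bcl3 (1.41) nor Birc3 (1.43) would be past it. After Benjamini-Hochberg adjustment over all RNAs by limma, 0 of the 6 had an adjusted p below 0.05, where 0.0739% of all RNAs were called higher and 0.123% lower. Without adjustment, 4 of the 6 were higher with P below 0.05 and 1 was lower, against 6.84% and 9.53% of all RNAs. The median log2 fold change of the 6 was 0.45, and that of all mRNAs tested was -0.02. The genes were listed with earlier results of these data known, so these counts are descriptions.

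**Figure D2:**
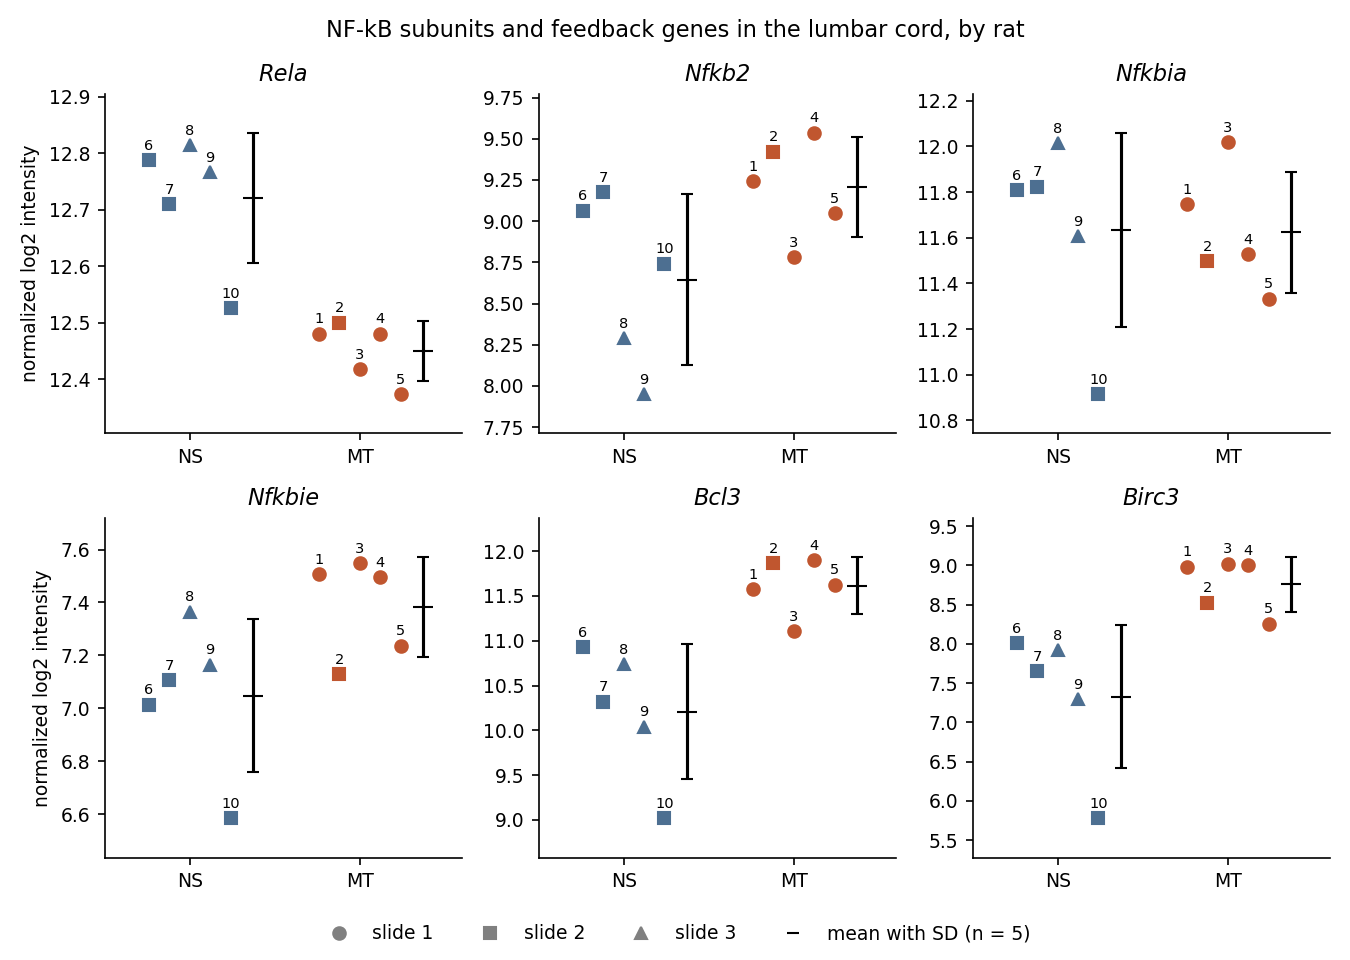
Normalized log2 intensity of the 6 measured genes in each rat, with a separate vertical scale per gene; numbers are rats, shapes are slides, and bars are the group mean with SD (n = 5). The MT and NS points do not overlap for Rela, Bcl3 and Birc3, and NS rat 10 is the lowest point for Nfkbia, Nfkbie, Bcl3 and Birc3.

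Rela (chr1:212354336-212364815) encodes p65, the subunit that carries the main activation domain of the canonical dimer. Its log2 intensity was 12.48, 12.50, 12.42, 12.48 and 12.37 in MT rats 1 to 5 and 12.79, 12.71, 12.81, 12.77 and 12.53 in NS rats 6 to 10. Every MT rat was below every NS rat, although the highest MT rat and the lowest NS rat were only 0.03 apart. The difference of -0.27 (SE 0.07, 95% confidence interval -0.43 to -0.11), which is 1.21-fold higher in NS, had P = 0.00348 and an adjusted p of 0.138 by limma, and an exact two-sided permutation test gave 0.00794, the smallest value it can give. On slide 2 the MT rat stood at 12.50 and the 3 NS rats between 12.53 and 12.79. Over all RNAs, every MT rat was below every NS rat in 3.29% and above in 2.35%; of the 6 genes this held for Rela downward and for Bcl3 and Birc3 upward.

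Nfkb2 (chr1:255106010-255114649) encodes p100, which is cut to p52, the subunit of the non-canonical pathway. Its log2 intensity was 9.24, 9.42, 8.78, 9.54 and 9.05 in MT rats 1 to 5 and 9.06, 9.18, 8.29, 7.95 and 8.74 in NS rats 6 to 10. MT rats 1, 2 and 4 were above all NS rats, while MT rats 3 and 5 lay among them. The difference was 0.56 (SE 0.25, 95% confidence interval 0.02 to 1.11) with P = 0.0446, an adjusted p of 0.296 by limma and an exact permutation p of 0.0714. The lowest values were those of the dimmer slide, where NS rats 8 and 9 averaged 8.12 against 8.99 for the NS rats of slide 2. Without slide 3 the difference was 0.21 with an adjusted p of 0.547.

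Nfkbia (chr6:78593844-78597307) encodes IκBα, the inhibitor that NF-κB induces within minutes of activation. Its log2 intensity was 11.75, 11.50, 12.02, 11.53 and 11.33 in MT rats 1 to 5 and 11.81, 11.82, 12.01, 11.61 and 10.92 in NS rats 6 to 10. The groups covered nearly the same range. The difference was -0.01 with a 95% confidence interval of -0.47 to 0.45 (adjusted p = 0.987 by limma). That interval still holds moderate differences in either direction. The value lay close to 0, and its sign turned without slide 3 (0.11) and without any one of MT rats 2, 4 and 5 or NS rats 6, 7 and 8 (0.0153 to 0.0865). Without NS rat 10 it was -0.19.

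Nfkbie (chr9:22941037-22947872) encodes IκBε, a slower inhibitor induced by the same factor. Its log2 intensity was 7.51, 7.13, 7.55, 7.50 and 7.24 in MT rats 1 to 5 and 7.01, 7.11, 7.37, 7.16 and 6.58 in NS rats 6 to 10. MT rats 1, 3 and 4 were above every NS rat and MT rats 2 and 5 were not. The difference of 0.34 (SE 0.15, 95% confidence interval 0.01 to 0.66) had P = 0.0448, an adjusted p of 0.296 by limma and an exact permutation p of 0.0556. Without NS rat 10 it was 0.22 with an adjusted p of 0.339, and without slide 3 it was 0.48 with an adjusted p of 0.210.

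Bcl3 (chr1:88599321-88613555) encodes an atypical, nuclear IκB protein that binds p50 and p52 homodimers and alters which targets they turn on. Its log2 intensity was 11.58, 11.87, 11.11, 11.90 and 11.62 in MT rats 1 to 5 and 10.93, 10.32, 10.74, 10.04 and 9.02 in NS rats 6 to 10. All MT rats were above all NS rats, with 0.18 between the closest pair. The group means were 11.61 ± 0.32 and 10.21 ± 0.75 (SD, n = 5 each), a log2 fold change of 1.41 (SE 0.33, 95% confidence interval 0.67 to 2.14) and a fold of 2.65. This placed Bcl3 at position 42 of 20284 when RNAs were ordered from the highest log2 fold change, with P = 0.00168, an adjusted p of 0.114 by limma and an exact permutation p of 0.00794. Before normalization the intensities were 2191 to 4902 in MT rats and 482 to 2649 in NS rats, so the groups overlapped on that scale. The same was so for Birc3 (311.4 to 633 against 59.1 to 352.7) and Rela (5357 to 7298 against 3901 to 9516). For Rela the MT median before normalization, 6305, was above the NS median, 5709, the reverse of the direction after it. NS rats 8 and 9 of the dimmer slide 3 had Rela at 5709 and 3901 on that scale.

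Birc3 (chr8:13285702-13313329) encodes cIAP2, a ubiquitin ligase of the TNF receptor complex and a long-known NF-κB target. Its log2 intensity was 8.98, 8.52, 9.02, 9.00 and 8.26 in MT rats 1 to 5 and 8.01, 7.65, 7.92, 7.29 and 5.78 in NS rats 6 to 10. The groups did not overlap, with 0.25 between MT rat 5 and NS rat 6. The means were 8.76 ± 0.35 and 7.33 ± 0.91 (SD, n = 5 each), a log2 fold change of 1.43 (SE 0.39, 95% confidence interval 0.55 to 2.31) and a fold of 2.69, with P = 0.00468, an adjusted p of 0.1505 by limma and an exact permutation p of 0.00794. Birc2, the neighbouring paralog of similar sequence, had a log2 fold change of 0.30 with an adjusted p of 0.304, and cross-hybridization between the probes of this pair was not tested.

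NS rat 10 set part of these differences. It had the lowest value of all 10 rats for 4 of the 6 genes, and the mean of the 6, each centred on its own average, was -0.96 in this rat, -0.42 in NS rat 9 and -0.09 to 0.05 in the other NS rats, against 0.09 to 0.44 in the MT rats. Its array was not dim, with 79.6% of spots well above background. Without it the log2 fold changes of Bcl3 and Birc3 were smaller, 1.11 and 1.04, but the spread within the NS group was also smaller, so that the adjusted p by limma was 0.0709 for Bcl3, 0.0744 for Birc3 and 0.0709 for Rela, whose difference was then -0.32.

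The slide was the other arrangement that moved with the groups. On slide 2 alone, Bcl3 was 11.87 in MT rat 2 and 9.02 to 10.93 in the NS rats, and Birc3 was 8.52 against 5.78 to 8.01. With slide as a fixed block, a comparison that rests on that slide, the log2 fold change was 1.78 for Bcl3 and 1.38 for Birc3, each with an adjusted p of 0.9998 by limma, and Birc3 was then no longer past the thresholds. With slide as a random block, 1.57 and 1.38 had adjusted p values of 0.515 and 0.663. Leaving out slide 3 gave 1.53 and 1.61, with adjusted p values of 0.188 and 0.205. Slide 1 held MT rats and slide 3 NS rats, so slide and group cannot be told apart there. For Rela the difference was -0.23 with slide as a random block (adjusted p = 0.661 by limma). With slide as a fixed block it was -0.17, with a 95% confidence interval of -0.44 to 0.09.

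**Figure D3:**
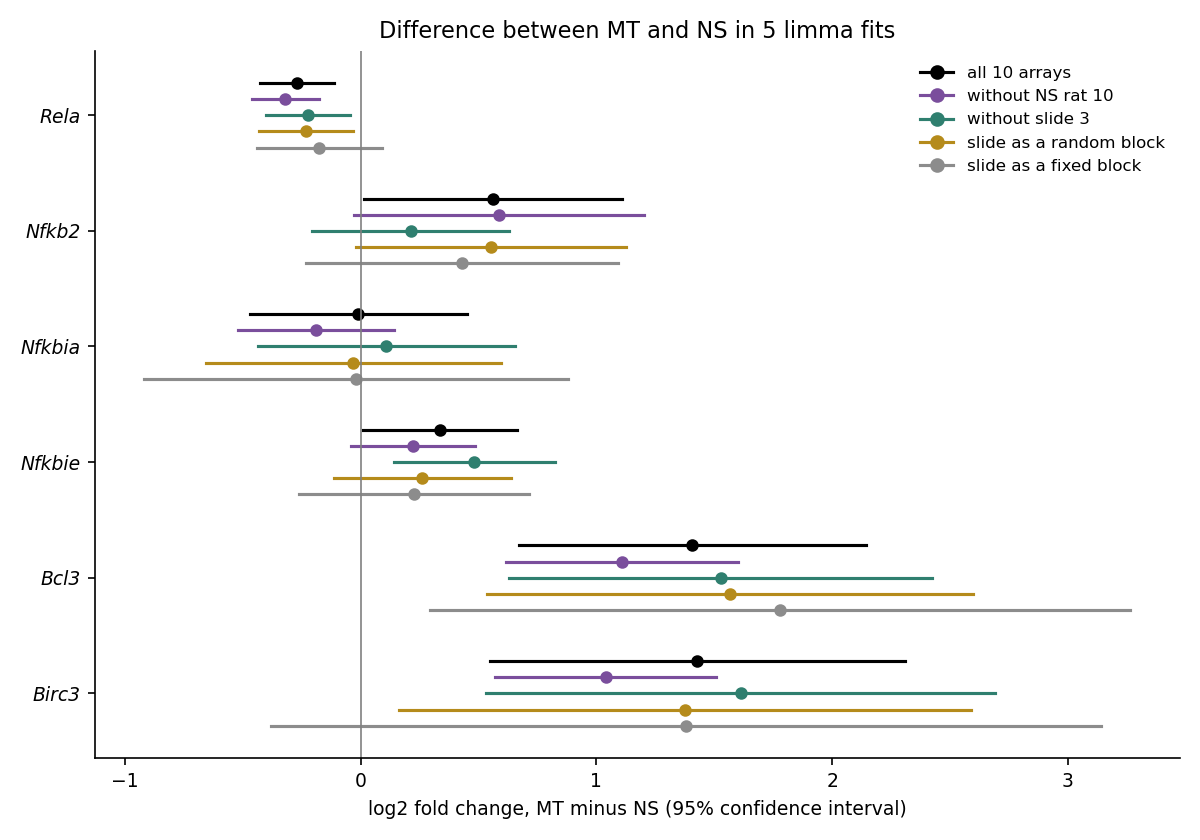
Log2 fold change (MT minus NS, points) with its 95% confidence interval (lines) for the 6 genes in 5 limma fits. The intervals of Bcl3 lie above 0 in all 5 fits, and those of Nfkbia span 0 in each. With slide as a fixed block that of Birc3 reaches -0.38 and that of Rela reaches 0.09. Those of Nfkb2 span 0 in every fit except that with all arrays. Those of Nfkbie span 0 without NS rat 10 and with slide as a random or a fixed block.

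The rest of the pathway was read from 7 lists ordered from ligand to target, 87 genes in all, of which 65 were tested. They were chosen with earlier results of these data known, so the counts are descriptions and not tests. By the thresholds of the study 7 of the 65 were higher in MT and 1 was lower, beside 1.74% and 0.996% of all RNAs. With an unadjusted P below 0.05, 12 were higher and 5 lower, beside 6.84% and 9.53% of all RNAs, and 0 had an adjusted p below 0.05 by limma. The count of 8 past the thresholds became 5 to 15 when single rats were left out and 1 with slide as a fixed block. Restricted to RNAs well above background on all 10 arrays, it was 6 of 61. All 8 genes past the thresholds were ligands or targets. The 3 other IκB proteins listed had no matched probe.

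**Figure D4:**
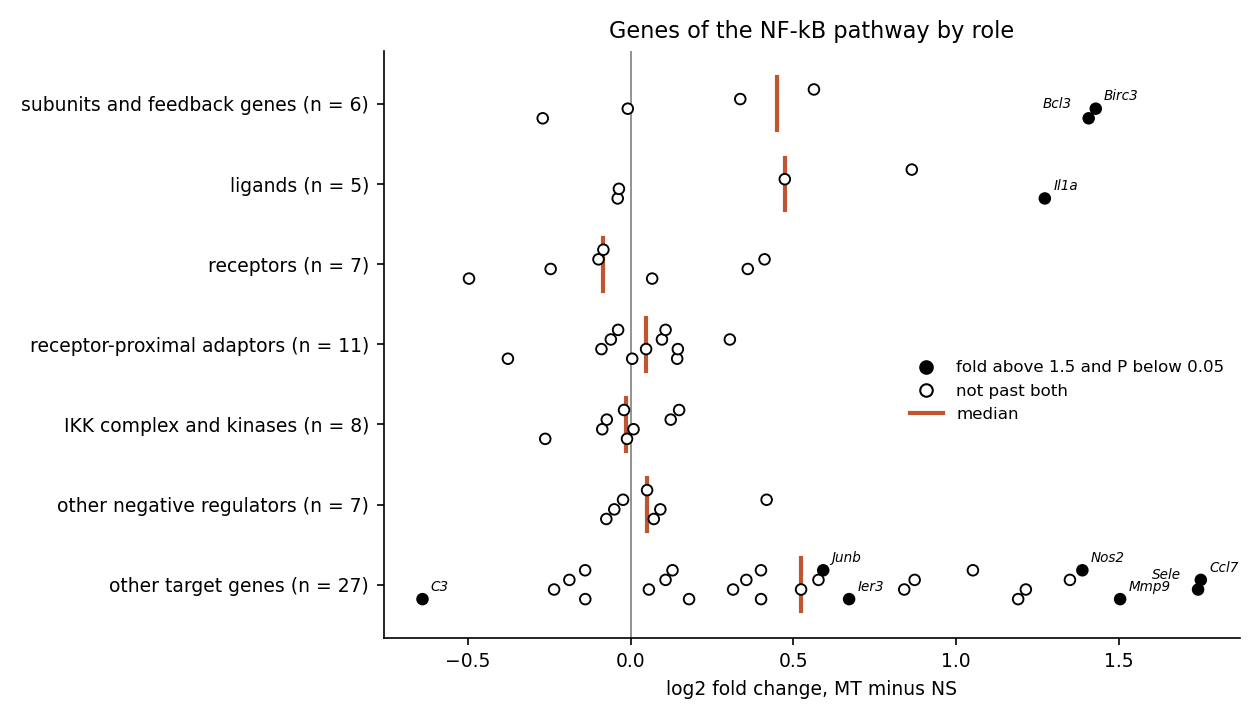
Log2 fold change (MT minus NS) of each tested gene, by role, with filled points past a fold of 1.5 at P below 0.05 and a bar at the list median. The genes from receptor to kinase lie between -0.50 and 0.41, while the target list reaches from -0.64 for C3 to 1.75 for Ccl7.

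Of 5 ligands tested, Il1a, which encodes the alarm cytokine interleukin-1α, was past the thresholds, and the median was 0.47. Il1a was 9.07, 8.82, 7.92, 9.54 and 7.40 in MT rats 1 to 5 and 7.54, 7.91, 7.96, 7.42 and 5.57 in NS rats 6 to 10. MT rats 1, 2 and 4 stood above the NS rats and MT rats 3 and 5 did not. Its log2 fold change was 1.27 (SE 0.53, adjusted p = 0.278 by limma), and without NS rat 10 it was 0.84 and no longer past the thresholds, as was also so without MT rat 1 (1.14), MT rat 2 (1.20), MT rat 4 (1.02) or NS rat 9 (1.31), with slide as a fixed or a random block (1.81 and 1.49), and by the methods' t-test. For Tnf and Il1b, the ligands best known to activate NF-κB, the log2 fold changes were 0.86 and 0.47 (adjusted p = 0.347 and 0.646).

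None of the 7 receptors, 11 receptor-proximal adaptors and 8 IKK complex genes tested was past the thresholds, and their median log2 fold changes were -0.08, 0.05 and -0.02. Among receptors the largest difference was that of Tlr2, a receptor for bacterial lipoproteins, at -0.50 (SE 0.21, adjusted p = 0.277 by limma). Among adaptors it was that of Irak4, the first kinase downstream of MyD88, at -0.38 (SE 0.11, adjusted p = 0.156). Irak4 was 6.63 to 6.74 in MT rats and 7.11 to 7.29 in NS rats 6 to 9, with NS rat 10 at 6.68 among the MT values, and without that rat the log2 fold change was -0.48 with an adjusted p of 0.0463. That value did not hold in other fits. Without both slide 3 and NS rat 10 Irak4 was at -0.45 (adjusted p = 0.222 by limma). Slide as a random block gave -0.36 (adjusted p = 0.6585 by limma), and slide as a fixed block gave -0.31.

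Within the IKK list the kinases Chuk and Ikbkb, the catalytic subunits, had log2 fold changes of -0.01 and 0.01 (adjusted p = 0.960 and 0.949). Tab1, an activator of the kinase TAK1, had the largest difference of that list. It was 11.12, 11.21, 11.03, 11.12 and 11.05 in MT rats 1 to 5 and 11.51, 11.39, 11.31, 11.23 and 11.41 in NS rats 6 to 10. The groups did not overlap, as for Rela, and the log2 fold change was -0.26 (SE 0.07, adjusted p = 0.143 by limma). Map3k14 of the same list did not overlap either, in the other direction. It was 9.612 to 9.649 in MT rats and 9.418 to 9.610 in NS rats (log2 fold change 0.15, adjusted p = 0.272 by limma). Over all RNAs, every MT rat was below every NS rat in 3.29% and above in 2.35%. Of the 7 negative regulators outside the 10 genes, the largest difference was that of Zc3h12a, an RNase that degrades cytokine transcripts, at 0.42 (adjusted p = 0.395), and the list median was 0.05.

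The target list was the one with the wider differences. Of 27 tested, 22 were higher in MT, with a median of 0.52 beside -0.02 for all mRNAs tested. Past the thresholds upward were 6 (Sele, Ccl7, Mmp9, Nos2, Junb and Ier3). Over all RNAs 1.74% were past them upward and 0.996% downward. Sele, Ccl7 and Mmp9 are among the top genes the study itself listed. Downward there was 1 (C3, a complement component, at -0.64 with an adjusted p of 0.06 by limma). Nos2 was dim, with means of 4.03 in MT and 2.64 in NS, and was well above background on 3 of the NS arrays. Ccl7, a chemokine for monocytes, was 8.88, 8.87, 7.79, 9.46 and 7.42 in MT rats 1 to 5 and 7.85, 6.96, 7.22, 6.24 and 5.39 in NS rats 6 to 10. It was above all NS rats in MT rats 1, 2 and 4, and its log2 fold change was 1.75 (SE 0.51, adjusted p = 0.162 by limma).

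Sele encodes E-selectin of activated endothelium and Mmp9 a gelatinase abundant in neutrophils. Sele was 6.17, 7.50, 5.77, 6.75 and 8.07 in MT rats 1 to 5 and 6.68, 4.30, 6.01, 4.44 and 4.12 in NS rats 6 to 10, and was well above background on 4 of the NS arrays. Mmp9 was 7.85, 7.99, 5.94, 8.64 and 6.94 in the same MT rats and 5.94, 6.15, 6.71, 6.29 and 4.76 in the same NS rats. The log2 fold changes were 1.74 (SE 0.60, adjusted p = 0.210 by limma) and 1.503 (SE 0.52, adjusted p = 0.209), with overlapping groups for both. With slide as a fixed block Ccl7 (2.13) and Sele (2.47) were no longer past the thresholds. NS rat 10 had the lowest value of all rats for 19 of the 27 targets, and the mean of the centred targets was -1.27 in this rat, -0.42 to 0.32 in the other NS rats and 0.07 to 0.51 in the MT rats. When slide 3 and NS rat 10 were both left out, none of these 8 pathway genes was past the thresholds, and the 1 of the 65 that was, Tlr2 (-0.72), was not among them. Bcl3 (0.99) and Birc3 (0.93) were past the thresholds in that setting.

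**Figure D5:**
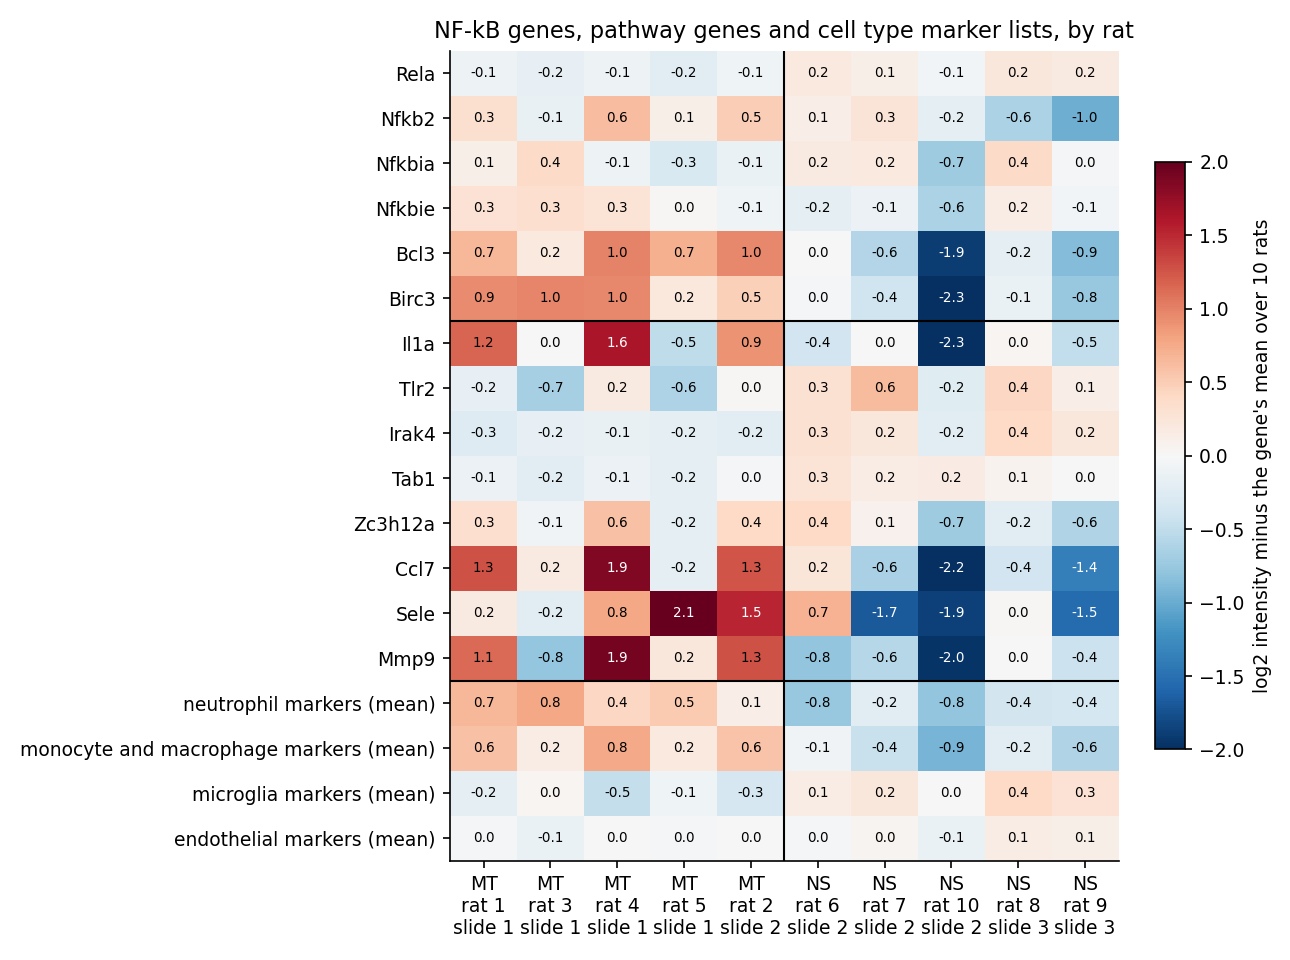
Log2 intensity of the 6 genes, the named pathway genes and the mean of marker lists in each rat (columns, by group and slide), minus the row's mean over the 10 rats; numbers are the plotted values and darker colours are farther from that mean. NS rat 10 is blue across Bcl3, Birc3, Il1a, Ccl7, Sele and Mmp9, and the neutrophil and monocyte rows are positive in every MT rat and negative in every NS rat.

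Neutrophil and monocyte markers moved with the groups. The marker lists were chosen with earlier results of these data known. S100a8, Np4, RatNP-3b, Ccr1, Clec4e (there named Clecsf9), Tmem119 and Cd22 are among the top genes the study itself listed. The counts below are therefore descriptions and not tests. All 8 of the 13 neutrophil markers that were tested were higher in MT, 4 of them past the thresholds (1.74% of all RNAs upward, 0.996% downward), and the mean of the centred list was 0.14 to 0.77 in MT rats and -0.79 to -0.23 in NS rats. Of these, S100a8, Camp, Csf3r, Fcnb and Np4 were well above background on all 10 arrays. RatNP-3b, with the largest difference of the list (2.28), was so on 5 MT and 4 NS arrays. Cxcr2 was so on 5 MT and 2 NS arrays and Ngp on 4 MT arrays and 1 NS array, and Ltf was below the filter. Of the 10 monocyte and macrophage markers, 5 were tested and 4 were past the thresholds upward, including Ccr1, a chemokine receptor, at 1.37 (adjusted p = 0.0287 by limma), while Ccr2 was at -0.05. The list mean was 0.15 to 0.76 in MT rats and -0.93 to -0.07 in NS rats. All 9 microglial markers tested were lower in MT, 2 of them past the thresholds (Tmem119 at -1.24 and Gpr34 at -0.63), with a list mean of -0.47 to 0.04 in MT rats and -0.01 to 0.41 in NS rats. The 7 endothelial markers tested held 0 genes past the thresholds and 1 with P below 0.05, and the erythrocyte, meningeal fibroblast, astrocyte, oligodendrocyte, neuronal, motor neuron and lumbar position lists also held 0 past the thresholds. Only 1 of the 6 lumbar position genes was tested, Hoxd10. Its centred value was -1.09 to 0.76 in MT rats and -0.54 to 0.49 in NS rats. Of the 7 B and T cell markers tested, 3 were higher and 4 lower, 2 of these (Cd79b and Cd22) past the thresholds. Cd79b was well above background on 3 MT and 2 NS arrays, the fewest the filter allows. The mean of the B and T cell list was -0.71 to 0.80 in MT rats and -0.50 to 0.58 in NS rats. Of the 6 astrocyte markers tested 5 were lower, 2 with P below 0.05, and the list mean was -0.08 to -0.03 in MT rats and -0.01 to 0.12 in NS rats. All 4 motor neuron and all 7 meningeal fibroblast markers tested were higher in MT. The mean of the centred meningeal fibroblast list was -0.75 in NS rat 10, -0.47 to 0.35 in the other NS rats and 0.14 to 0.21 in the MT rats. In bulk tissue more cells of a type cannot be told apart from more RNA per cell, and the part of these cell type markers in the levels of Bcl3, Birc3 and the targets was not tested.

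The mRNAs whose pattern over the 10 arrays was most like the mean of the 6 genes were Cebpb (r = 0.98), Bst1 (0.97), Tnfaip2 (0.96), Myc (0.95) and Slc16a3 (0.95). With the group means removed, r was 0.96, 0.95, 0.93, 0.91 and 0.90 in the same order. Without NS rat 10 r was 0.95, 0.98, 0.89, 0.95 and 0.93 over the other 9 arrays. The points share the normalization, the slides and the low value of NS rat 10, so these are descriptions. Cebpb, a transcription factor of acute-phase genes, had a log2 fold change of 0.55 with an adjusted p of 0.172 by limma.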

How the data were processed

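The 10 genes and the pathway and marker lists were chosen with earlier results of these data known. Each array was a one-colour Agilent array of rat RNAs. Per the labels, rRNA was removed, RNA was labelled by random priming along the transcript with Cy3, and images were read with Feature Extraction 11.0.1.1. The deposited intensities, already background-corrected by that software, were floored at 1, taken as log2 and quantile normalized over 42136 spots that were not controls, the normalization the authors state. Outlier spots were dropped, spots of a probe were averaged, and an RNA was kept when 5 or more arrays had over 50% of its spots marked as well above background. The deposited table of normalized log2 values by the authors (column medians 6.82 to 6.83) correlated with these values at r of 0.996 or more and served as an alternative.

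Groups were compared with limma 3.58.1 (R 4.3.3), with P adjusted over all 20284 RNAs tested, and single genes with an exact permutation test. The number of rats limits the precision. The error given by the scanner software for a spot of the 6 genes was 10.00% to 11.00% of its intensity. A gene with several RNAs was read from the brightest. mRNA probes were named through RefSeq accessions (GRCr8), which matched 14274 of 15323. Named genes were the 10 listed, up to 3 of each pathway list past the thresholds by size or the single largest difference where none was, the 5 mRNAs most like the mean, and the promoter of listed genes past the thresholds that held a κB match. The pipeline was tested on simulated data. Alternatives were another scaling, normexp background correction (on median signals with an offset of 50, since no mean signal was given), filters, the methods' t-test, the slide, and leaving out arrays; leaving out slide 3 with NS rat 10 was added after seeing the data.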

Additional observations from a re-analysis of the deposited data

Results flagged for a closer look

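In the 28 groups of 5 rats examined, 2 for each of the 6 genes and the 8 named pathway genes, 1 held a rat far from the others. Il1a in NS rat 10 was 5.57, the next NS rat was 7.42, and this gap was 0.777 of the whole range of the NS group. Chance marks about 1 in 20 such groups.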

How the results depend on the processing

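Some of the 22 alternatives run could not change the log2 fold changes of the 6 genes. Among these were each probe on its own, outlier spots kept and the filters on dim probes. Each gene had 1 probe, no outlier spot and signal well above background on all 10 arrays. Bcl3 was past the thresholds of the study in all 22 alternatives (log2 fold change 0.99 to 1.78, adjusted p 0.0625 to 0.9998), and Birc3 in 21 of the 22 (0.93 to 1.61, adjusted p 0.0744 to 0.9998). The exception was slide as a fixed block, which left 1 of the 6 genes and 1 of the 65 pathway genes past the thresholds, against 2 and 8 with all arrays and no block. With slide as a random block 4 pathway genes were past them. When slide 3 and NS rat 10 were both left out the count was 1, Tlr2 (-0.72), and none of the 8 was past them. Rela stayed lower in MT throughout (-0.32 to -0.17, adjusted p 0.0709 to 0.9998), and Nfkbie higher (0.17 to 0.48). Nfkb2 ranged from 0.09 to 0.70 and was past the thresholds when scaled to the 75th percentile (0.62), a scaling that moved the median of all RNAs to 0.07. Nfkbia changed sign with normexp correction (0.0142), with the deposited table (0.0039) and without slide 3 (0.11), and Zc3h12a without slide 3 and NS rat 10 (-0.0317). With the methods' t-test, 3 of the 6 genes had P below 0.05, in place of 5.

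Leaving out each rat in turn gave 2 to 3 of the 6 genes past the thresholds, 0 to 0 past an adjusted p of 0.05, 3 to 3 whose groups did not overlap and a median of 0.38 to 0.52. Separated groups stay separated when a rat is removed, so the count without overlap could not fall below 3. The same runs gave 5 to 15 pathway genes past the thresholds, 5 without MT rat 2 or NS rat 9 and 15 without NS rat 6. Nfkb2 was past the thresholds without MT rat 3 (0.67), NS rat 6 (0.67) or NS rat 7 (0.70), and Tlr2 without MT rat 4 (-0.60) or NS rat 10 (-0.62). The log2 fold change of Nfkbia then ranged from -0.188 to 0.0865. No paired analysis was possible because the groups share no replicate number. Where a call changed, the cause was not tested.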
